A study of Mus musculus with 4 samples.

Results

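The ADAM and ADAMTS proteases described here are 7 genes, *Adam8*, *Adam9*, *Adam10*, *Adam15*, *Adam17*, *Adam19* and *Adamts1*, found by symbol among the 25655 genes of the deposited tables. These tables hold 59 genes named *Adam*, *Adamts*, *Adamtsl* or *Adamdec1* in all. RNA-Seq was performed on cardiac neutrophils to ask how CD300a, an inhibitory receptor of myeloid cells, shapes their transcripts after myocardial infarction and reperfusion (MI/R). CD45.2+CD11b+Ly6G+ cells were sorted into SiglecF hi and SiglecF lo neutrophils from male WT (C57BL/6J) mice and male *Cd300a-/-* mice on the C57BL/6 background. The mice were 8 to 12 weeks old, had the left anterior descending artery occluded for 60 minutes before reperfusion, and were analyzed on day 3. Each group is 1 library made from 8 pooled mice, so no difference has a replicate check, no test compared conditions, and the values describe these 4 libraries. Total counts were 9631901 and 10988619 for the SiglecF lo neutrophils from WT and *Cd300a-/-* mice, and 19278243 and 17632989 for their SiglecF hi neutrophils.

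ADAM proteases are membrane-anchored metalloproteinases that cut the extracellular part off other membrane proteins, a step called shedding, which releases cytokines and growth factors and removes adhesion molecules and receptors from the cell surface. ADAMTS proteases are secreted relatives that bind to and cleave extracellular matrix. In neutrophils, ADAM8 is carried in granules and on the membrane of activated cells.

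*Cd300a* itself had 3024 counts and 28 counts in SiglecF lo neutrophils from WT and *Cd300a-/-* mice, and 6640 counts and 27 counts in their SiglecF hi neutrophils, as the genotype labels say. For *Siglecf* the TPM, a level corrected for transcript length and library total, was 11.3 and 15.3 in the SiglecF lo subset of WT and *Cd300a-/-* mice, and 354 and 405 in their SiglecF hi subset. All 8 neutrophil markers listed were above a mean of 10 TPM, and their summed level was 154708 TPM and 203225 TPM in SiglecF lo neutrophils from WT and *Cd300a-/-* mice, and 27768 TPM and 32760 TPM in their SiglecF hi neutrophils, with *S100a9* the most abundant. *Ly6g*, whose protein was used for the sort, reached only 11.1 TPM and 41.9 TPM in SiglecF hi neutrophils from WT and *Cd300a-/-* mice, against 330.4 TPM and 889 TPM in their SiglecF lo neutrophils. Transcripts of other cells were present in all 4 libraries and are given below as lists. Not every list moved with the members it is set beside.

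Differences are given as the log2((TPM + 1) ratio) of 2 libraries, a scale on which low genes appear to change less than they do, and a gene was counted as higher or lower past 0.5. Counting was limited to genes whose mean over the libraries exceeded 10 TPM, which kept 6523 genes and all 7 members. Each interval is a 95% interval from the 2 counts behind a ratio and covers counting error only. Because the libraries are bulk samples, fewer cells of a type and less RNA per cell cannot be told apart in any of these values. The comparisons share libraries, so the values of a member in each of them are given side by side.

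In SiglecF lo neutrophils the genotypes differed for most of the 7 proteases. *Adam19*, *Adam8* and *Adam15* were higher in *Cd300a-/-* mice and *Adamts1* was lower, that is 3 members higher and 1 lower, where 16.4% of the 6523 genes were higher and 19.9% lower. *Adam17*, *Adam9* and *Adam10* lay within the threshold. The median log2 ratio of the 7 was 0.43, and that of all genes tested was -0.02. *Adam8* and *Adam15* also stood in heat maps that the study drew from these libraries, and the direction of both is therefore not independent evidence. In SiglecF hi neutrophils 0 members were higher and 0 lower, where 3.31% of all genes were higher and 3.46% lower, and the median of the 7 was -0.08 beside 0.04 for all genes. The genotype ratio in SiglecF lo minus that in SiglecF hi neutrophils was past 0.5 for *Adam8*, *Adam19* and *Adam15* and past -0.5 for *Adamts1*, 3 higher and 1 lower, where 13.8% and 20.3% of all genes were. The median of this difference was 0.43 for the members and -0.05 for all genes, and it was not tested.

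All genes tested had a median ratio between subsets (SiglecF hi over SiglecF lo) of 0.53 in WT and 0.61 in *Cd300a-/-*, and each subset ratio is therefore also given centred on it. The 10 most abundant genes held 22.8% and 26.7% of all TPM in SiglecF lo neutrophils from WT and *Cd300a-/-* mice, against 12.3% and 11.8% in their SiglecF hi neutrophils. In WT, *Adam9*, *Adam15*, *Adam17* and *Adam10* were higher in SiglecF hi neutrophils and *Adamts1*, *Adam19* and *Adam8* lower, 4 higher and 3 lower, where 51.9% of all genes were higher and 7.47% lower. After centring, *Adam9* was the 1 member higher and the same 3 genes were lower, where 19.3% of all genes were higher and 20.9% lower. In *Cd300a-/-*, 2 members (*Adam9* and *Adam10*) were higher and 3 (*Adam8*, *Adam19* and *Adamts1*) lower in SiglecF hi neutrophils, where 56.6% and 7.97% of all genes were. Centring left 0 members higher and 4 lower, *Adam15* being added, where 21.2% of all genes were higher and 23.6% lower. The shares of members that were higher thus stand near or below those of all genes, and *Adam8*, *Adam19* and *Adamts1* are lower in both genotypes on each scale. The median ratio of the 7 was 0.59 in WT and 0.03 in *Cd300a-/-*, or 0.06 and -0.58 after centring.

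**Figure D1:**
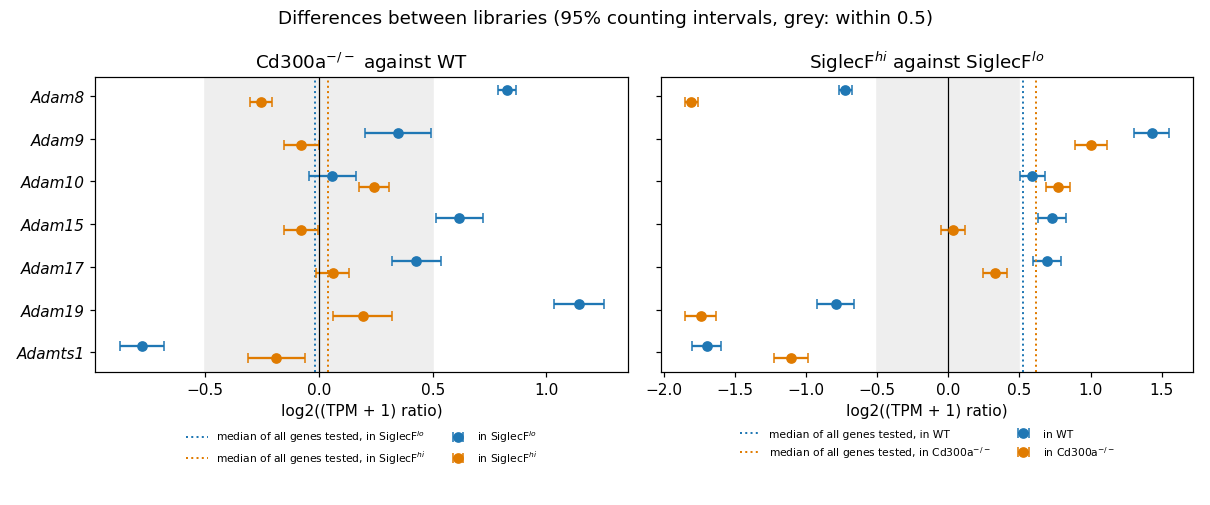
Log2((TPM + 1) ratios) of the 7 proteases (points) with 95% counting intervals (bars), on the left *Cd300a-/-* against WT within each subset and on the right SiglecF hi relative to SiglecF lo in either genotype. The dotted lines are the medians of all 6523 genes tested and the grey band marks ratios within 0.5. On the left, *Adam8*, *Adam15* and *Adam19* lie right of the band and *Adamts1* left of it in SiglecF lo neutrophils, and all 7 lie inside it in SiglecF hi neutrophils.

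*Adam17* and *Adam10* encode the main sheddases of most cells, ADAM17 cutting TNF, its receptors and the IL-6 receptor, and ADAM10 cutting Notch receptors and membrane-bound chemokines. *Adam17* had, in WT and *Cd300a-/-* mice, 1101 counts (46.1 TPM) and 1644 counts (62.4 TPM) in the SiglecF lo subset and 3072 counts (75.3 TPM) and 2867 counts (78.5 TPM) in the SiglecF hi subset. In TPM it was therefore lowest in WT SiglecF lo, with *Cd300a-/-* SiglecF lo neutrophils between that library and the 2 SiglecF hi libraries, which did not differ beyond their counting interval. The ratio of *Cd300a-/-* to WT was 0.43 (0.32 to 0.54) in the SiglecF lo and 0.06 (-0.01 to 0.13) in the SiglecF hi subset. The ratio of SiglecF hi to SiglecF lo was 0.70 in WT, or 0.17 after centring, and its sign in *Cd300a-/-* turned with the scale, from 0.33 to -0.29 after centring. *Adam17* overlaps *Iah1* on the opposite strand, a gene with 216, 210, 503 and 445 counts in WT SiglecF lo, *Cd300a-/-* SiglecF lo, WT SiglecF hi and *Cd300a-/-* SiglecF hi neutrophils. Whether the counting used strand is not given in the sources used here, so reads in the overlap cannot be assigned.

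*Adam10* had 1360 counts (57.6 TPM) and 1564 counts (60.1 TPM) in SiglecF lo neutrophils from WT and *Cd300a-/-* mice, and 3516 counts (87.2 TPM) and 3729 counts (103 TPM) in their SiglecF hi neutrophils. In TPM the 2 SiglecF lo libraries were the lower ones and did not differ beyond their counting interval, and *Cd300a-/-* SiglecF hi was the highest. Its genotype ratio was 0.06 (-0.04 to 0.16) in the SiglecF lo and 0.24 (0.18 to 0.31) in the SiglecF hi subset. The ratio of SiglecF hi to SiglecF lo was 0.59 in WT and 0.77 in *Cd300a-/-*, and centring brought these to 0.06 and 0.16. *Adam10* thus had a genotype ratio closer to 0 in SiglecF lo neutrophils than the other 6 members.

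Proteins that escort or regulate these sheddases were read as lists. *Rhbdf2* encodes iRhom2, which takes ADAM17 to the cell surface in immune cells, and it had, in WT and *Cd300a-/-* mice, 30.5 TPM and 66.8 TPM in the SiglecF lo subset and 37.5 TPM and 34.8 TPM in the SiglecF hi subset. The library of *Cd300a-/-* SiglecF lo neutrophils was the only high one, with a genotype ratio of 1.11 (0.97 to 1.24) there and -0.11 (-0.22 to 0.01) in SiglecF hi neutrophils. *Frmd8*, whose product binds iRhoms and keeps them at the surface, lay between 26.5 and 29.8 TPM in the 4 libraries. Of the 3 genes of this list, 2 were over the limit, and in SiglecF lo neutrophils 1 of them was higher in *Cd300a-/-* and 0 lower (median 0.59), against 0 and 0 in SiglecF hi neutrophils (median -0.13). Of the 6 tetraspanins of the TspanC8 group, which escort ADAM10, 2 were over the limit. *Tspan14* held most of their level, at 106 TPM and 93.4 TPM in SiglecF lo and 119 TPM and 122 TPM in SiglecF hi neutrophils from WT and *Cd300a-/-* mice, and *Tspan17* was lower in *Cd300a-/-* SiglecF lo neutrophils with a ratio of -1.01 (-1.38 to -0.64), 0 higher and 1 lower with a median of -0.59. In SiglecF hi neutrophils neither passed 0.5 between genotypes.

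Proprotein convertases cut the inhibitory prodomain off most of these proteases, and 3 of the 4 listed were over the limit. *Furin* had 62.0 TPM and 118 TPM in SiglecF lo neutrophils from WT and *Cd300a-/-* mice, and 101 TPM and 117 TPM in their SiglecF hi neutrophils, so that WT SiglecF lo was the low library in TPM. The study chose *Furin* from these libraries as well, and its direction is not independent evidence. *Pcsk6* had genotype ratios of 0.58 (0.36 to 0.81) in the SiglecF lo and -0.60 (-0.74 to -0.46) in the SiglecF hi subset, and *Pcsk7* of 0.28 and 0.27. In SiglecF lo neutrophils the *Cd300a-/-* mice had 2 of the 3 higher and 0 lower, with a median of 0.58, and in SiglecF hi neutrophils 0 were higher and 1 lower, with a median of 0.20.

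Natural inhibitors of these enzymes include TIMP-3, which blocks ADAM17, ADAM10 and ADAMTS proteases, and TIMP-1, which blocks ADAM10. *Timp3* had, in WT and *Cd300a-/-* mice, 39.8 TPM and 26.5 TPM in the SiglecF lo subset and 29.0 TPM and 29.4 TPM in the SiglecF hi subset, so WT SiglecF lo was the high library (genotype ratio -0.57, -0.70 to -0.43). *Timp1* had 39.9 TPM and 32.0 TPM in SiglecF lo neutrophils from WT and *Cd300a-/-* mice, and 86.5 TPM and 56.2 TPM in their SiglecF hi neutrophils, with genotype ratios of -0.31 in the SiglecF lo and -0.61 in the SiglecF hi subset. *Timp2*, which the study also chose, was the most abundant of the 6 inhibitors listed, at 156 and 189 TPM in the SiglecF lo and 273 and 229 TPM in the SiglecF hi neutrophils from WT and *Cd300a-/-* mice. Of the 6 inhibitors, 3 were over the limit, and 0 of these were higher and 1 lower in *Cd300a-/-* in each subset, with medians of -0.31 in the SiglecF lo and -0.25 in the SiglecF hi subset.

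Of 16 genes for known substrates of ADAM17, 14 were over the limit. Between genotypes, 1 (*Cd163*) was higher and 1 (*Hbegf*) lower in *Cd300a-/-* SiglecF lo neutrophils, with a median of 0.03, and 3 (*Cd163*, *Hbegf* and *Selp*) were higher and 0 lower in SiglecF hi neutrophils of *Cd300a-/-* mice, with a median of 0.27. *Tnf* was higher in the SiglecF hi neutrophils, with 333 TPM and 327 TPM in the SiglecF lo and 1309 TPM and 1637 TPM in the SiglecF hi neutrophils from WT and *Cd300a-/-* mice. The study also named *Tnf* for this direction from these libraries, so the values here are not independent evidence. Beside the libraries, the study measured *Tnf* by quantitative PCR and reported it higher in SiglecF hi neutrophils. In each genotype 5 of the 14 were higher and 2 lower in SiglecF hi neutrophils, with medians of 0.25 in WT and 0.27 in *Cd300a-/-*, or -0.28 and -0.34 after centring. Of all genes, 51.9% were higher and 7.47% lower in WT, and 56.6% and 7.97% in *Cd300a-/-*. Among the higher substrates, *Mertk* (both genotypes) and *Csf1r* (*Cd300a-/-* only) also belong to the macrophage markers read below. The part of macrophages in these counts was not tested.

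Of 13 genes for substrates of ADAM10, 8 were over the limit, and in SiglecF lo neutrophils 3 (*Notch1*, *Notch2* and *Icosl*) were higher in *Cd300a-/-* and 2 (*Cdh5* and *Trem2*) lower. *Notch1* had 16.1 TPM and 38.6 TPM in SiglecF lo neutrophils from WT and *Cd300a-/-* mice, and 20.9 TPM and 25.2 TPM in their SiglecF hi neutrophils, and it belongs with *Notch2* and *Cd44* to the genes the study chose. *Trem2*, a lipid receptor of macrophages, had, in WT and *Cd300a-/-* mice, 157 TPM and 78.1 TPM in the SiglecF lo subset and 520.1 TPM and 405 TPM in the SiglecF hi subset. The median was 0.08 in the SiglecF lo and 0.27 in the SiglecF hi subset, where 0 genes were higher and 0 lower. Between subsets 3 were higher and 2 lower in WT SiglecF hi neutrophils (median 0.09, or -0.44 after centring), and 4 higher and 2 lower in SiglecF hi neutrophils of *Cd300a-/-* mice (0.37, or -0.24 after centring).

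Among the other members, *Adam8* (ENSMUSG00000025473, on chromosome 7 from 139558845 to 139572475 on GRCm39) encodes a leukocyte protease that can activate itself. It had 7643 counts (474 TPM) and 14958 counts (842 TPM) in SiglecF lo neutrophils from WT and *Cd300a-/-* mice, and 7893 counts (287 TPM) and 5911 counts (240.04 TPM) in their SiglecF hi neutrophils. Both SiglecF lo libraries were above both SiglecF hi libraries, with *Cd300a-/-* SiglecF lo the highest and *Cd300a-/-* SiglecF hi the lowest, and each step in this order was beyond its counting interval. *Adam8* was the most abundant of the 7 in every library, at ranks 334 and 164 of all genes in SiglecF lo neutrophils from WT and *Cd300a-/-* mice, and ranks 561 and 678 in their SiglecF hi neutrophils. It made up 61.8% and 70.7% of the members' summed TPM in SiglecF lo neutrophils from WT and *Cd300a-/-* mice, and 43.6% and 38.7% in their SiglecF hi neutrophils. The sum itself was 768 TPM, 1191 TPM, 658 TPM and 621 TPM in the same order, and 293 TPM, 349 TPM, 371 TPM and 381 TPM without *Adam8*.

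The genotype ratio of *Adam8* was 0.83 (0.79 to 0.87) in the SiglecF lo and -0.26 (-0.30 to -0.21) in the SiglecF hi subset, and 94.1% of all genes tested had a lower ratio in SiglecF lo neutrophils. Between subsets it was lower in SiglecF hi neutrophils, with a ratio of -0.72 in WT and -1.81 in *Cd300a-/-*, or -1.25 and -2.42 after centring. Of 5 genes for substrates of ADAM8, 3 were over the limit. *Selplg*, which encodes the selectin ligand PSGL-1, had, in WT and *Cd300a-/-* mice, 1637 TPM and 1711 TPM in the SiglecF lo subset and 718 TPM and 697 TPM in the SiglecF hi subset. Like *Adam8*, *Selplg* was lower in the SiglecF hi neutrophils of both genotypes. Between genotypes *L1cam* was the 1 gene higher in *Cd300a-/-* SiglecF lo neutrophils and 0 were lower, against 0 and 0 in SiglecF hi neutrophils.

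*Adam19* (ENSMUSG00000011256, on chromosome 11 from 45946819 to 46038170) encodes a sheddase of neuregulins. It had 861 counts (26.3 TPM) and 2140 counts (59.1 TPM) in SiglecF lo neutrophils from WT and *Cd300a-/-* mice, and 826 counts (14.7 TPM) and 852 counts (17.0 TPM) in their SiglecF hi neutrophils. The *Cd300a-/-* SiglecF lo library stood above the other 3, and both SiglecF hi libraries were the lowest. Its genotype ratio of 1.14 (1.03 to 1.25) in SiglecF lo neutrophils was the largest of the 7 in that comparison on each scale, and 97.8% of all genes tested had a lower ratio. In SiglecF hi neutrophils the ratio was 0.19 (0.06 to 0.32). Between subsets *Adam19* was lower in SiglecF hi neutrophils, with a ratio of -0.79 in WT and -1.74 in *Cd300a-/-*, or -1.32 and -2.35 after centring.

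The summed level of granule genes of younger neutrophils was also highest in the library where *Adam8* and *Adam19* were highest, while *Chil3* alone had 625 TPM and 623 TPM in SiglecF lo neutrophils from WT and *Cd300a-/-* mice. All 7 granule genes listed were over the limit and none was at 0. Their summed level was 5526 TPM and 13149 TPM in SiglecF lo neutrophils from WT and *Cd300a-/-* mice, and 959 TPM and 1794 TPM in their SiglecF hi neutrophils. *Lcn2* had the highest mean over the libraries, but in WT SiglecF hi neutrophils it was below *Chil3* (242 TPM against 566 TPM). In SiglecF lo neutrophils 5 of the 7 granule genes were higher and 0 lower in *Cd300a-/-* mice (median 1.36), and in SiglecF hi neutrophils 6 were higher and 0 lower (median 1.70). In the latter comparison *Adam8* (-0.26) and *Adam19* (0.19) stayed within the threshold. In SiglecF hi relative to SiglecF lo neutrophils 0 were higher and 6 lower in each genotype (medians -3.09 in WT and -3.27 in *Cd300a-/-*, or -3.62 and -3.88 after centring). The 8 neutrophil markers had 4 higher and 0 lower in *Cd300a-/-* SiglecF lo neutrophils (median 0.51) and 2 higher and 0 lower in SiglecF hi neutrophils of *Cd300a-/-* mice (median 0.23). In SiglecF hi relative to SiglecF lo neutrophils 0 of the 8 were higher, with 5 lower in WT and 7 in *Cd300a-/-* (medians -1.85 and -1.95, or -2.37 and -2.56 after centring). The study chose *Mmp8* and *Mmp9* of these lists from the same libraries. It also measured *Mmp9* by quantitative PCR and reported it higher in SiglecF lo neutrophils of *Cd300a-/-* mice. The part of these genes, or of the cells they mark, in the levels of *Adam8* and *Adam19* was not tested.

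*Adam15* (ENSMUSG00000028041, on chromosome 3 from 89245849 to 89257303) encodes a protease whose disintegrin domain binds integrins. It had, in WT and *Cd300a-/-* mice, 1113 counts (55.1 TPM) and 1896 counts (85.2 TPM) in the SiglecF lo subset and 3174 counts (92.1 TPM) and 2687 counts (87.1 TPM) in the SiglecF hi subset. In TPM only WT SiglecF lo was low, and the 2 *Cd300a-/-* libraries did not differ beyond their counting interval. The genotype ratio was 0.62 (0.51 to 0.72) in the SiglecF lo and -0.08 (-0.15 to -0.01) in the SiglecF hi subset. The ratio of SiglecF hi to SiglecF lo was 0.73 in WT, or 0.20 after centring, and in *Cd300a-/-* it turned from 0.03 to -0.58 after centring.

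*Adam9*, which encodes a widely expressed sheddase of epidermal growth factor family ligands, had 600 counts (28.4 TPM) and 849 counts (36.4 TPM) in SiglecF lo neutrophils from WT and *Cd300a-/-* mice, and 2823 counts (78.2 TPM) and 2393 counts (74.0 TPM) in their SiglecF hi neutrophils. Both SiglecF hi libraries were above both SiglecF lo libraries. *Adam9* was the 1 member higher in SiglecF hi neutrophils of WT mice on both scales, with a ratio of 1.43 (1.31 to 1.55), or 0.90 after centring. In *Cd300a-/-* the ratio was 1.00 (0.89 to 1.11), or 0.39 after centring, which lies within the threshold. The genotype ratio was 0.35 (0.20 to 0.49) in the SiglecF lo and -0.08 in the SiglecF hi subset, where the 2 libraries did not differ beyond the counting interval.

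Summed macrophage and fibroblast transcripts were higher in the SiglecF hi libraries as well in TPM. All 11 macrophage and monocyte markers were over the limit, *C1qb* having the highest mean over the libraries and none being at 0. The 11 markers had summed levels of 3673 TPM and 3428 TPM in SiglecF lo neutrophils from WT and *Cd300a-/-* mice, and 7344 TPM and 6603 TPM in their SiglecF hi neutrophils. Of these, 6 were higher and 1 (*Ly6c2*) lower in WT SiglecF hi than in WT SiglecF lo neutrophils, with a median of 1.21, or 0.68 after centring, and in *Cd300a-/-* 9 were higher and 1 lower, with a median of 0.99, or 0.37. Between genotypes 1 macrophage marker was higher and 2 lower in *Cd300a-/-* SiglecF lo neutrophils (median -0.14), and 0 were higher and 0 lower in SiglecF hi neutrophils (median -0.15). Of 8 fibroblast markers 7 were over the limit, and all 8 summed to 1134 TPM, 1121 TPM, 2329 TPM and 1659 TPM in WT SiglecF lo, *Cd300a-/-* SiglecF lo, WT SiglecF hi and *Cd300a-/-* SiglecF hi neutrophils, *Dcn* the most abundant and none at 0. All 7 were higher in WT SiglecF hi than in WT SiglecF lo neutrophils (median 1.11, or 0.58 after centring), and 3 were higher and 0 lower in *Cd300a-/-* (median 0.39, or -0.23 after centring). Between genotypes 1 fibroblast marker was higher and 0 lower in *Cd300a-/-* SiglecF lo neutrophils (median -0.04), and 0 were higher and 3 lower in SiglecF hi neutrophils of *Cd300a-/-* mice (median -0.42). *Timp1* was likewise lower in the latter comparison (-0.61). The part of these cells in the levels of *Timp1*, and of *Adam9*, *Adam10*, *Adam15* and *Adam17* in SiglecF hi neutrophils, was not tested.

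Integrins that bind the disintegrin domains of ADAM proteases were also read. Of 8 listed, 6 were over the limit, and *Itgb1* was the most abundant, with 151 TPM and 118 TPM in SiglecF lo and 251 TPM and 256 TPM in SiglecF hi neutrophils from WT and *Cd300a-/-* mice. In SiglecF hi relative to SiglecF lo neutrophils 5 were higher and 0 lower in WT (median 0.85, or 0.33 after centring) and 4 higher and 0 lower in *Cd300a-/-* (median 0.76, or 0.15). Between genotypes *Itgav* was the 1 gene higher and 0 were lower in *Cd300a-/-* SiglecF lo neutrophils (median 0.06), and 0 were higher and 0 lower in SiglecF hi neutrophils (median 0.03). Among 5 listed substrates of ADAM9, ADAM15 and ADAM19, 1 was over the limit. This was *Hbegf*, with 12.2 TPM and 7.73 TPM in SiglecF lo neutrophils from WT and *Cd300a-/-* mice, and 9.45 TPM and 14.4 TPM in their SiglecF hi neutrophils. Its genotype ratio was -0.60 (-0.92 to -0.27) in the SiglecF lo and 0.56 (0.31 to 0.80) in the SiglecF hi subset.

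**Figure D2:**
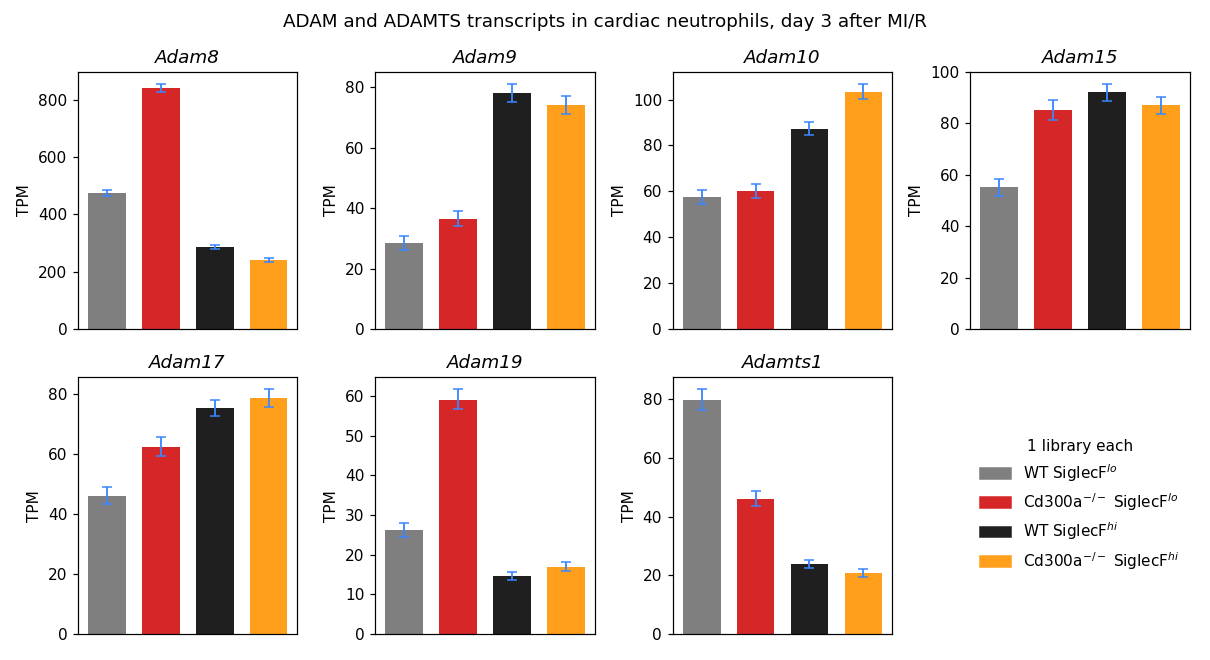
TPM of each of the 7 proteases (bars, 1 panel a gene, each axis from 0) in the 4 libraries, with 95% counting intervals from the counts. *Adam8* and *Adam19* are highest in *Cd300a-/-* SiglecF lo neutrophils (842 TPM and 59.1 TPM), *Adamts1* is highest in WT SiglecF lo neutrophils (79.9 TPM), and *Adam9*, *Adam10* and *Adam17* are higher in both SiglecF hi libraries than in both SiglecF lo libraries.

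*Adamts1* (ENSMUSG00000022893, on chromosome 16 from 85590715 to 85600001) encodes the secreted member of the 7, which cleaves the proteoglycans versican and aggrecan. It had, in WT and *Cd300a-/-* mice, 2104 counts (79.9 TPM) and 1340 counts (46.1 TPM) in the SiglecF lo subset and 1076 counts (23.9 TPM) and 841 counts (20.9 TPM) in the SiglecF hi subset. WT SiglecF lo was the highest library and the 2 SiglecF hi libraries were the lowest, and each step in this order was beyond its counting interval. The genotype ratio was -0.78 (-0.88 to -0.68) in the SiglecF lo and -0.19 (-0.31 to -0.06) in the SiglecF hi subset. In SiglecF hi relative to SiglecF lo neutrophils the ratio was -1.70 (-1.80 to -1.60) in WT and -1.11 (-1.23 to -0.99) in *Cd300a-/-*, or -2.22 and -1.72 after centring. After *Adam8*, *Adamts1* was the most abundant member in WT SiglecF lo neutrophils, and it was the sixth of the 7 in each of the other 3 libraries. Among 8 listed substrates of ADAMTS1 3 were over the limit, and *Thbs1* and *Sdc4* were higher in *Cd300a-/-* SiglecF lo neutrophils (ratios 0.59 and 1.06), 2 higher and 0 lower with a median of 0.59. In SiglecF hi neutrophils 0 were higher and 1, *Nid1*, was lower (ratio -0.52), with a median of 0.17.

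The summed level of smooth muscle cell and pericyte markers had the same order of libraries as *Adamts1*, though that of *Pdgfrb* did not. Of 6 listed, 5 were over the limit, and all 6 summed to 833 TPM and 332 TPM in SiglecF lo neutrophils from WT and *Cd300a-/-* mice, and 130.5 TPM and 86.3 TPM in their SiglecF hi neutrophils, *Acta2* the most abundant and none at 0. Of the 5, 0 were higher and 4 lower in *Cd300a-/-* SiglecF lo neutrophils (median -1.05) and 0 higher and 3 lower in SiglecF hi neutrophils of *Cd300a-/-* mice (median -0.65). In SiglecF hi relative to SiglecF lo neutrophils 5 were lower in WT (median -2.69, or -3.22 after centring) and 4 in *Cd300a-/-* (median -1.93, or -2.55), with 0 higher in each. Of 8 endothelial markers 7 were over the limit, and all 8 summed to 594 TPM, 179 TPM, 347 TPM and 456 TPM in WT SiglecF lo, *Cd300a-/-* SiglecF lo, WT SiglecF hi and *Cd300a-/-* SiglecF hi neutrophils, *Fabp4* the most abundant and none at 0. All 7 were lower in the SiglecF lo neutrophils of *Cd300a-/-* mice (median -1.64), and 1 was higher and 1 lower in SiglecF hi neutrophils of *Cd300a-/-* mice (median 0.38). In WT SiglecF hi relative to SiglecF lo neutrophils 0 endothelial markers were higher and 6 lower (median -0.99, or -1.51 after centring), and in *Cd300a-/-* 6 were higher and 1 lower (median 0.72), which centring brings to 0.10, near all genes. The part of these cells in the levels of *Adamts1* and *Timp3*, and of *Cdh5* among the substrates, was not tested.

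For the 3 members with the widest range over the libraries, the genes nearest in pattern were found by the Euclidean distance of the 4 centred log2(TPM + 1) values. *Adam19*, with a log2 range of 1.93, was nearest to *Mov10* (distance 0.069), *G6pdx* (0.072) and *Tgm1* (0.19). *Mov10*, which encodes an RNA helicase, had 27.0 TPM and 57.5 TPM in SiglecF lo neutrophils from WT and *Cd300a-/-* mice, and 15.1 TPM and 17.6 TPM in their SiglecF hi neutrophils, close to *Adam19* in every library. *Adamts1*, with a range of 1.89, was nearest to *Clu* (0.17), *Pcp4l1* (0.28) and *Fkbpl* (0.29), and *Adam8*, with a range of 1.81, to *Rab11fip4* (0.15), *Pi16* (0.15) and *Wfdc17* (0.21). Within a distance of 0.5 lay 50 genes for *Adam19*, 16 for *Adamts1* and 58 for *Adam8*, and with 4 libraries such a likeness is a description only.

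Beside the 7 members, 52 genes of these families were in the tables, and *Adamtsl4* alone was over the limit. *Adamtsl4* encodes a matrix protein without protease activity that binds fibrillin, and it had, in WT and *Cd300a-/-* mice, 7.54 TPM and 16.7 TPM in the SiglecF lo subset and 14.8 TPM and 14.4 TPM in the SiglecF hi subset. In TPM, like *Adam15*, it was low only in WT SiglecF lo, but in *Cd300a-/-* mice its subset ratio went from -0.20 to -0.82 after centring. Its genotype ratio was 1.05 (0.81 to 1.29) in the SiglecF lo and -0.04 (-0.21 to 0.13) in the SiglecF hi subset. Another 10 genes had a mean between 1 and 10 TPM, 41 had 1 TPM or less, and 13 of these had 0 counts in all 4 libraries. The 52 genes summed to 41.6 TPM and 47.0 TPM in SiglecF lo neutrophils from WT and *Cd300a-/-* mice, and 85.5 TPM and 71.0 TPM in their SiglecF hi neutrophils, far below the members. *Adamts2*, which trims procollagens, had 4.52 TPM and 4.76 TPM in SiglecF lo neutrophils from WT and *Cd300a-/-* mice, and 12.6 TPM and 8.32 TPM in their SiglecF hi neutrophils. *Adamts10* had 46 counts in WT and 201 counts in *Cd300a-/-* SiglecF lo neutrophils, and 440 and 370 counts in the SiglecF hi neutrophils, so WT SiglecF lo was again the low library.

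*Adam28* had 2 and 4 counts in the SiglecF lo and 197 and 174 counts in the SiglecF hi neutrophils from WT and *Cd300a-/-* mice, which separated the subsets. *Adamdec1*, a macrophage and dendritic cell relative of *Adam28*, had 53 counts in WT SiglecF lo and 0 counts in *Cd300a-/-* SiglecF lo neutrophils, and 218 and 152 counts in the SiglecF hi neutrophils. Taking 3 counts as the floor of the *Cd300a-/-* SiglecF lo library, the level of *Adamdec1* per total count there was 20.2-fold lower than in the WT SiglecF lo library. This fold leaves out the counting error of the 53 counts and is not a lower bound. *Adam1a* had 41 counts in WT SiglecF lo and 0 counts in *Cd300a-/-* SiglecF lo neutrophils, 15.6-fold lower on the same floor and with the same limit. It is also uncertain because *Adam1b* is a close copy. In SiglecF hi neutrophils *Adam1a* went the other way, with 25 and 55 counts in WT and *Cd300a-/-* mice. Its genotype ratio there was 0.73 (0.37 to 1.09). *Adam12* had 4 and 50 counts in the SiglecF lo and 170 and 36 counts in the SiglecF hi neutrophils from WT and *Cd300a-/-* mice. *Adamts5* was higher in both SiglecF hi libraries, at 3.93 to 4.69 TPM, than in both SiglecF lo libraries, at 1.75 to 1.79 TPM. Its subset ratio was 1.03 in WT and 0.84 in *Cd300a-/-*. After centring these were 0.504 and 0.23, so only the WT ratio stayed past 0.5. *Adamtsl5* had 18 and 35 counts in the SiglecF lo and 123 and 72 counts in the SiglecF hi neutrophils from WT and *Cd300a-/-* mice, with a subset ratio of 1.52 in WT, or 0.99 after centring, while that in *Cd300a-/-*, 0.44, did not pass its counting interval and turned to -0.17 after centring. *Adamtsl2* was also higher in both SiglecF hi libraries (4.67 and 5.53 TPM) than in the SiglecF lo libraries (1.78 and 1.32 TPM), and *Adamts4* was highest in WT SiglecF lo neutrophils, at 5.87 TPM against 2.56 to 3.26 TPM in the other 3.

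For each of the 3 members that were higher in *Cd300a-/-* SiglecF lo neutrophils 1 promoter is shown, although *Adam15* had the opposite direction to *Adam8* and *Adam19* between subsets in WT. The promoter shown for *Adam19* is 1 of 3, picked because it held the AP-1 letters described below. RefSeq promoters on GRCm38.p6, 250 bases before to 50 after the start of a transcript, were matched by symbol for 6 of the 7 members (8 promoters, 3 of them for *Adam19*), and *Adam9* had none. Letters bound by C/EBP factors (TTGCNNAA), AP-1 (TGANTCA), STAT factors (TTCNNNGAA) and PU.1 (GAGGAA), chosen after the values were seen, were searched on both strands. They occur in 10.8%, 7.81%, 8.30% and 28.3% of all 32851 promoters of this length. The C/EBP letters were in the promoters of *Adam8*, 219 bases before the start, and *Adam15*, 215 bases before it, the AP-1 letters in 1 promoter of *Adam19*, 131 bases before its start, and the STAT letters in none of the 8. The PU.1 letters were in another promoter of *Adam19* and in that of *Adam10*. None of the 4 motifs was in the remaining promoter of *Adam19* or in the promoters of *Adam17* and *Adamts1*. A match is a description of letters, not a binding site. The 250 bases before the start are given 5′ to 3′ on the gene's strand, with the C/EBP letters in capitals for *Adam8* (chr7:139992563-139992812, minus strand) and *Adam15* (chr3:89350029-89350278, minus strand) and the AP-1 letters in capitals for *Adam19* (chr11:46055734-46055983, plus strand).
Adam8: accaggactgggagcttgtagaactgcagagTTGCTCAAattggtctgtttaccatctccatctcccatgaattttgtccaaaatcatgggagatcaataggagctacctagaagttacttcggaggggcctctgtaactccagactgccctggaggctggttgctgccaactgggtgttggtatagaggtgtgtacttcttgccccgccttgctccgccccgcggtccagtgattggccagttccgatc
Adam15: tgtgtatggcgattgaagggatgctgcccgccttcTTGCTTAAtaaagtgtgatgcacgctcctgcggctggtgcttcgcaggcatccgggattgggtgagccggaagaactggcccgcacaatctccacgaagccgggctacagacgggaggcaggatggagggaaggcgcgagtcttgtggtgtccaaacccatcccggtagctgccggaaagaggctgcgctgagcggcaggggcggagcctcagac
Adam19: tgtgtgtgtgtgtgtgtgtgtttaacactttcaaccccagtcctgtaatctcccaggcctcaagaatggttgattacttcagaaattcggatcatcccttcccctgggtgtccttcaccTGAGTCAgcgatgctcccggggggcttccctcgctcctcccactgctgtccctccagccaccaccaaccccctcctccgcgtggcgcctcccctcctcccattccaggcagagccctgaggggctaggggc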

How the data were processed

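RNA of the 4 neutrophil libraries was poly(A)-selected and sequenced in paired-end mode, and the methods name CLC Genomics Workbench for TPM. GRCm39 is the genome build in the submitters' processing notes, and mapping settings and annotation release are not given in the sources used here. The authors deposited, for each gene, counts (whole numbers without normalization), RPKM and TPM. The deposited signal, a scaled CPM, is the counts per library size times 1 factor per library, which differs from the inverse TMM factor by at most 0.0085%. TPM was used for levels and ratios and counts for intervals and totals; RPKM was not used.

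Log2((TPM + 1) ratios) were computed with Python 3.11.15, numpy 2.4.6, pandas 2.3.3 and scipy 1.17.1, and figures with matplotlib 3.10.9. Ratios of 2 libraries carry a 95% Poisson interval where both counts are at least 10. The calculations were tested on simulated counts. Alternatives were a pseudocount of 0.1, TMM scaling (edgeR 4.0.16 in R 4.3.3, which gave no test), centring on the median, a threshold of 1, a mean TPM over 1, and a TPM over 10 in at least 1 library.

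Members and gene lists were chosen with earlier results of these data known. By rule, the text names all members, other family genes with a mean over 1 TPM and the 3 genes nearest to each of the 3 members of widest range. Genes of the lists could be named if over 10 TPM (*Epx*, *Prg2* and *Ccr3* are named although under it); those named were picked with their values seen, and the counts and medians given cover every gene of a list over 10 TPM. The lists are convertases, iRhoms, TspanC8 tetraspanins, inhibitors, substrates, integrins and markers of neutrophils, granules, macrophages, fibroblasts, endothelial and mural cells, eosinophils, cardiomyocytes and dissociation stress. *Iah1* and *Adam1b* were named after their values were seen.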

Additional observations from a re-analysis of the deposited data

Results flagged for a closer look

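*Adam8* and *Adam15* had genotype ratios of opposite sign in the 2 subsets, each with a counting interval that left out 0, but in SiglecF hi neutrophils both lay within the threshold of 0.5. For *Adam8* the log2 ratio of *Cd300a-/-* to WT was 0.83 in the SiglecF lo and -0.26 in the SiglecF hi subset, and these differed by 1.08 (95% counting interval 1.02 to 1.15). For *Adam15* the ratios were 0.62 and -0.08, with a difference of 0.70 (0.57 to 0.83). *Adam9* also had opposite signs, with 0.35 and -0.08, but its interval in SiglecF hi neutrophils only just reached 0 (upper limit 1.7e-05). That ratio was -0.09 with TMM scaling and -0.12 after centring, so this distinction from *Adam15* is slight. Each side is 1 library against 1 library, and the difference between subsets was not tested.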

How the results depend on the processing

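No paired analysis was possible because each group has 1 library. A log2 threshold of 1 lowered the number of members past it from 4 to 1 (*Adam19*) between genotypes in SiglecF lo neutrophils, from 7 to 2 (*Adam9* and *Adamts1*) between subsets in WT, from 5 to 4 (1 higher and 3 lower) between subsets in *Cd300a-/-*, and from 4 to 1 (*Adam8*) for the difference of the genotype ratios. Of all 6523 genes, those past 1 were 3.36% higher and 6.01% lower between genotypes in SiglecF lo neutrophils, 20.3% and 2.99% between subsets in WT, 26.7% and 3.62% between subsets in *Cd300a-/-*, and 3.11% and 6.25% for the difference. TMM scaling and centring on the median each lowered the number between subsets in WT from 7 to 4 (1 higher and 3 lower), since both remove the shift of all genes. In *Cd300a-/-* they changed it from 5 to 4, with the split going from 2 higher and 3 lower to 0 higher and 4 lower. A pseudocount of 0.1, a mean TPM over 1 and a TPM over 10 in at least 1 library changed none of the 5 numbers, and neither TMM scaling nor centring changed the 3 numbers that involve genotype. Of the 14 genotype ratios of the members, all kept within their counting intervals under a pseudocount of 0.1, TMM scaling and centring, with a largest shift of 0.05. The 14 subset ratios moved by up to 0.61 with TMM scaling or centring. Depth does not limit the members, which had at least 600 counts in each library, but several other family genes had under 10 counts in a library. What 1 library per group leaves unknown is the spread between mice.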

Other observations

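Genes of eosinophils, of cardiomyocytes and of dissociation stress were also read. Of 7 eosinophil markers 1, *Ear2*, was over the limit, and it made up most of their summed level (all 7) of 173 TPM and 87.9 TPM in SiglecF lo neutrophils from WT and *Cd300a-/-* mice, and of 117 TPM and 119 TPM in their SiglecF hi neutrophils. The genotype ratio of *Ear2* was -0.98 in the SiglecF lo and 0.04 in the SiglecF hi subset. The eosinophil granule genes *Epx* and *Prg2* had 0 counts in all 4 libraries and at most 2 counts, respectively, while the eosinophil receptor gene *Ccr3* had 25 and 33 counts in the SiglecF lo and 141 and 141 counts in the SiglecF hi neutrophils from WT and *Cd300a-/-* mice. The share of eosinophils in these libraries was not tested. Of 8 cardiomyocyte markers 4 were over the limit, and all 8 summed to 51.5 TPM, 26.6 TPM, 58.6 TPM and 94.1 TPM in the same order. Of the 4, 0 were higher and 2 lower in *Cd300a-/-* SiglecF lo and 2 were higher and 0 lower in SiglecF hi neutrophils of *Cd300a-/-* mice. All 10 dissociation stress genes were over the limit, with summed levels of 7238 TPM, 6403 TPM, 8481 TPM and 8910.1 TPM in the same order. Between genotypes 1 stress gene was higher and 1 lower in SiglecF lo neutrophils (median -0.13), and 0 were higher and 0 lower in SiglecF hi neutrophils (median 0.01). In SiglecF hi relative to SiglecF lo neutrophils 4 stress genes were higher and 0 lower in WT (median 0.36, or -0.17 after centring), and 5 were higher and 0 lower in *Cd300a-/-* (median 0.50, or -0.11). Cardiomyocyte markers had 2 higher and 0 lower there in WT (median 0.21, or -0.32 after centring) and 3 higher and 0 lower in *Cd300a-/-* (median 1.16, or 0.55).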
